A study of Mus musculus with 32 samples.

Results

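The 9 genes described here, Slc2a1, Hk2, Gpi1, Pfkl, Aldoa, Pgk1, Eno1, Pkm and Ldha, encode a glucose transporter and enzymes of glycolysis, were chosen by name, and were each found by symbol among the 29511 genes of the count table and again in the FPKM table. RNA was measured in 6DT1 mammary tumors and in lungs of female FVB/N mice that carried (WT) or lacked (KO) Clic4, a chloride intracellular channel protein. The tumors were grown from 6DT1, a cell line explanted from a mammary tumor of an MMTV-Myc transgenic mouse, which was placed in the mammary fat pad and which carries Clic4 in both hosts, so that host genotype refers to the stroma of a tumor but to all cells of a lung. The KO line had been made on a mixed background and crossed back to FVB/N, and WT and KO mice came from heterozygous crosses. The 32 samples were 6 tumors from KO hosts and 6 from WT hosts, taken 14 days after implantation, lungs from 6 KO and 6 WT mice that bore such a tumor for 14 days, and lungs of 4 KO and 4 WT control mice without a tumor. The labels did not tie a tumor to the lung of the same mouse.

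Glycolysis splits glucose into pyruvate in the cytosol and yields ATP without oxygen. Glucose enters through facilitative transporters such as Slc2a1 (GLUT1), hexokinase traps it as glucose 6-phosphate, phosphofructokinase commits it to breakdown, and lactate dehydrogenase turns pyruvate into lactate while restoring NAD+. Proliferating cells and tumors commonly carry high levels of this pathway, and Myc and the hypoxia-inducible factors are known to act on its genes.

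Libraries held 4446323 to 8318711 counts. Clic4 was at 206 to 279.8 CPM in KO lungs and at 588 to 867 CPM in WT lungs, and at 248 to 279.7 CPM in tumors of KO hosts against 296 to 325 CPM in tumors of WT hosts, where CPM is the count scaled to library size with TMM factors. The deletion in KO mice removes only part of the gene, and reads of the remaining transcript are still counted, so these CPM do not measure intact Clic4. Sftpc, the surfactant protein of alveolar type 2 cells, was at 4113 to 5830 CPM in lungs and at most 0.488 CPM in tumors. In tumors the summed level of 6 endothelial markers was 99.9 to 190.0 CPM, against 2807 to 3161 CPM in lungs, whereas the sum of 6 macrophage markers was 605 to 1173 CPM against 268 to 363 CPM. Because whole tissue was sequenced, a lower share of a cell type and less RNA per cell cannot be told apart in any value that follows. FPKM (fragments scaled for transcript length and library size) was used to set genes side by side within a tissue, for shares within a sample and in the limma alternative, while differences between tissues or hosts were taken from the counts, since 3 short noncoding RNAs (Rn7sk with Rn7s1 and Rn7s2) made up 58.1 to 70.2% of the FPKM sum of a sample but 8.33 to 14.1% of its counts.

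The first question was how the pathway differed between the tumor and the lung of a host. All 9 genes were higher in tumors than in 14-day lungs, in WT and in KO hosts (9 of 9 called at a false discovery rate, FDR, under 0.05 by edgeR's quasi-likelihood test, where 37.5% of 16825 genes were called higher in WT hosts and 37.2% in KO hosts). The median log2 difference of the 9 was 2.75 in WT and 2.94 in KO hosts, while the median of all genes tested was -0.0045 and 0.0103. Every one of the 12 tumors exceeded every one of the 20 lungs for each of the 9, which held for 19.0% of the 16791 genes with a mean over 1 CPM. Together the 9 genes took 0.486 to 0.65% of the counts of a tumor and 0.0882 to 0.105% of the counts of a lung. The largest FDR among the 9 was 3.4e-14 in WT and 5.4e-14 in KO hosts, both for Gpi1. Tumor cells, stroma and lung cells enter this contrast together, and 12 of 12 proliferation genes of a second list were also higher in tumors of both hosts, with a summed level of 1067 to 1528 CPM in tumors and 114 to 275 CPM in lungs. The part of proliferation in the difference was not tested.

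**Figure D1:**
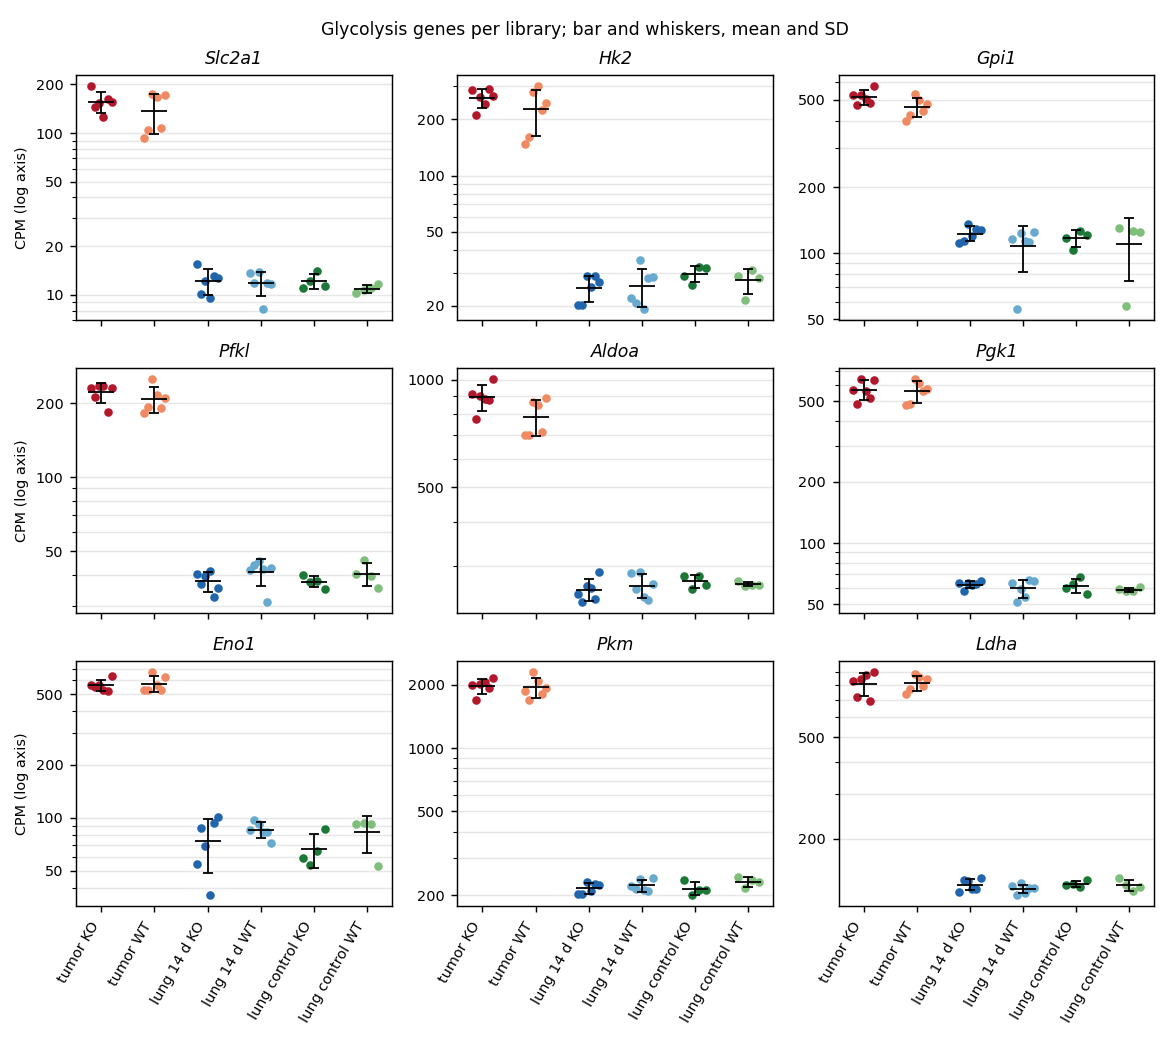
Level of each of the 9 genes in every sample, in TMM-scaled CPM on a log axis, with 1 point per sample and a bar with whiskers for the group mean and SD, for tumors of KO and WT hosts and for KO and WT lungs at 14 days and without tumor. For each gene the 12 tumors sit above the 20 lungs, and within a tissue the groups overlap.

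Slc2a1, the transporter through which most glucose enters growing cells (chr4:119108711-119137983, GRCm38), showed the largest ratio of the 9 as counted. Its level ran from 93.8 to 175 CPM in the 6 WT tumors, with a median of 137 CPM, and from 126 to 196 CPM in the 6 KO tumors, with a median of 155 CPM. In 14-day lungs it ran from 8.2 to 13.8 CPM in WT mice, with a median of 11.8 CPM, and from 9.59 to 15.6 CPM in KO mice, with a median of 12.4 CPM. The tumor level was 11.4-fold that of the lung in WT hosts (log2 3.52 ± 0.15 SE, 95% interval of the fold 9.28 to 14.1) and 12.9-fold in KO hosts (log2 3.69 ± 0.16 SE). Hk2, a hexokinase bound to mitochondria that is prominent in muscle, fat and many tumors (chr6:82725025-82774454), ran from 147 to 303 CPM in WT tumors and from 211 to 289.6 CPM in KO tumors, with medians of 234 and 266 CPM. All lungs lay far lower, with medians of 25.2 CPM in WT and 26.1 CPM in KO lungs at 14 days and a highest value of 35.1 CPM. The ratio was 8.76-fold in WT hosts (log2 3.13 ± 0.16 SE) and 10.3-fold in KO hosts (log2 3.37 ± 0.16 SE).

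The ratios of the middle steps were smaller. Gpi1, which converts glucose 6-phosphate to fructose 6-phosphate (chr7:34201330-34230336), was 4.3-fold higher in WT tumors (400.3 to 529 CPM, median 462 CPM) than in WT 14-day lungs (55.8 to 125 CPM, median 115 CPM), and 4.19-fold higher in KO hosts. Pfkl, the liver-type phosphofructokinase (chr10:77986947-78010083), was 5.03-fold higher in WT hosts, where the tumor median was 201 CPM and the lung median 42.6 CPM, and 5.87-fold higher in KO hosts, where the medians were 231 and 38.1 CPM. Aldoa, the aldolase that splits fructose 1,6-bisphosphate (chr7:126795234-126800751), had the smallest ratio, 2.97-fold in WT (95% interval 2.71 to 3.25) and 3.47-fold in KO hosts (3.16 to 3.80). It was also the gene with the highest lung level per length. Its lowest tumor (699 CPM) still exceeded its highest lung (289.5 CPM) by 2.42-fold, the narrowest gap of the 9.

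The later steps of the pathway, where ATP and pyruvate are made, differed by 6.16- to 9.31-fold. Pgk1, the first ATP-forming enzyme (chrX:106187100-106203699), ran from 477 to 642 CPM in WT tumors and from 51.2 to 65.8 CPM in WT 14-day lungs, a 9.31-fold difference (log2 3.22 ± 0.08 SE), and differed by 9.1-fold in KO hosts. The gap between its lowest tumor and highest lung, 7.03-fold, was the widest of the 9 as counted. Eno1, enolase (chr4:150236721-150248879), was 6.74-fold higher in WT and 7.65-fold higher in KO tumors, but with the counts of its near-identical copies added the ratio was 12.4-fold in WT (log2 3.63 ± 0.08 SE) and 12.3-fold in KO hosts. Pkm, pyruvate kinase (chr9:59656368-59679375), had medians of 1901 CPM in WT and 2001 CPM in KO tumors against 218 and 217 CPM in the lungs, 8.76-fold in WT and 9.15-fold in KO hosts. The gene counts do not separate its M1 and M2 splice forms. Ldha, which makes lactate (chr7:46841475-46855627), ran from 740.3 to 889 CPM in WT tumors and from 119.9 to 133 CPM in WT lungs, a 6.43-fold difference (log2 2.69 ± 0.06 SE), against 6.16-fold in KO hosts.

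**Figure D2:**
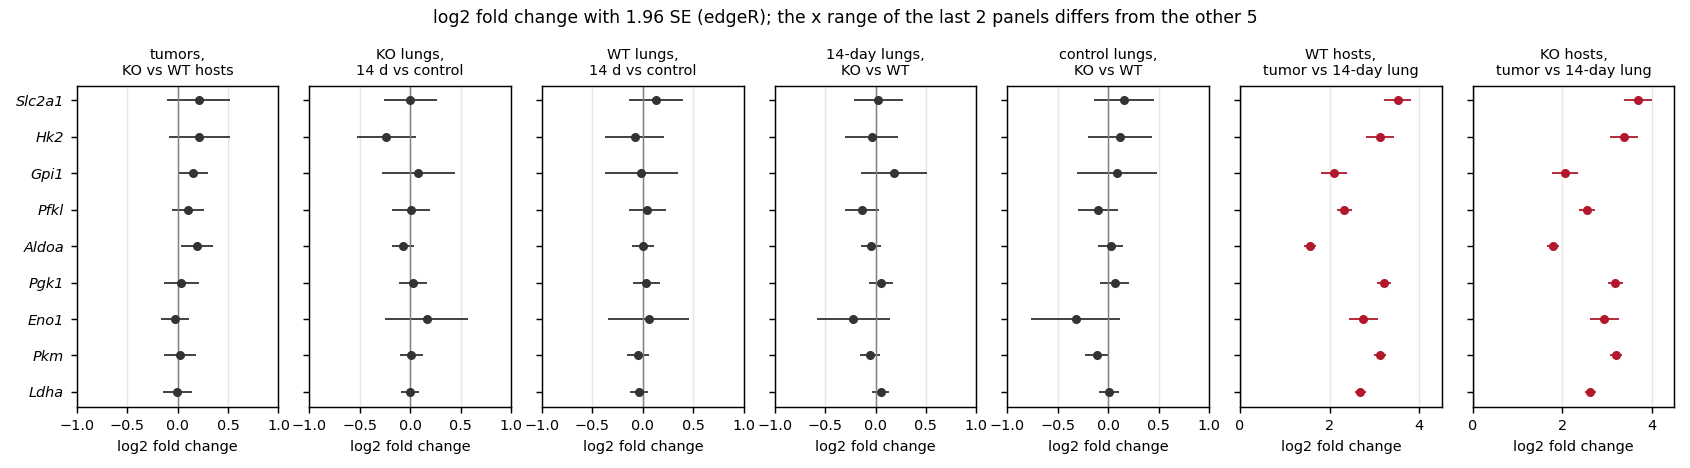
Log2 differences of the 9 genes with 95% intervals from the SE of edgeR's fit, for tumors of KO against WT hosts, for 4 comparisons of lungs, and, on a wider x range, for tumor against 14-day lung in each host. The tumor against lung points lie between 1.57 and 3.69, and the points of the comparisons within a tissue lie between -0.32 and 0.21.

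Levels per length kept a similar grouping in both tissues but not the same order. In tumors the FPKM means ran from Pkm (851 ± 80.3 SD, n = 12), Aldoa (643 ± 68.3) and Ldha (573 ± 52.5) through Pgk1 (337 ± 37.1), Eno1 (318 ± 29.0) and Gpi1 (249.6 ± 22.9) to Hk2 (69.0 ± 13.2), Pfkl (63.1 ± 7.42) and Slc2a1 (50.3 ± 9.9). Between neighbours in that order only Ldha and Pgk1, and Gpi1 and Hk2, had ranges that did not overlap, so that the genes as counted fell into 3 tiers. In lungs Aldoa stood alone at the top (215 ± 13.5, n = 20), followed by Pkm (101 ± 6.8) and Ldha (97.6 ± 3.66), whose ranges overlapped. Gpi1 (61.7 ± 11.7), Eno1 (45.5 ± 10.5) and Pgk1 (38.3 ± 2.63) came next, then Pfkl (12.3 ± 1.33) and Hk2 (8.72 ± 1.83), and Slc2a1 (4.37 ± 0.738) was lowest with a range below that of Hk2. Transporter and hexokinase were thus among the 3 lowest genes of both tissues. The place of Eno1 depended on reads assigned to near-identical copies. With the counts of the copies Eno1b and Gm4735 added at the length of Eno1, it stood at 625.3 ± 60.2 FPKM in tumors, rank 3, with a range that overlapped those of Aldoa and Ldha, and at 52.6 ± 4.21 FPKM in lungs, rank 5.

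Several steps have more than 1 isozyme, and the share of the named gene in the FPKM of its step is given as a description without a test. At the transport step Slc2a1 made up 88.7 ± 2.85% of the sum of Slc2a1, Slc2a3 and Slc2a4 in tumors and 36.6 ± 5.34% in lungs, while the counts of Slc2a3, a high-affinity transporter of neurons and leukocytes, in tumors were 0.911 of those in 14-day lungs in WT hosts (FDR = 0.52 by edgeR) and 0.86 in KO hosts (FDR = 0.29). Among hexokinases Hk2 took 46.1 ± 5.83% in tumors and 26.7 ± 4.29% in lungs. Hk1, the widely expressed form, was at 64.0 ± 6.84 FPKM in tumors, close to Hk2, and by counts it was 3.44-fold higher in tumors than in lungs in WT and 3.93-fold in KO hosts. Pfkl was the minor partner of the platelet-type Pfkp in both tissues, with 32.4 ± 2.42% of the step in tumors and 26.6 ± 2.72% in lungs, and Pfkp was 4.62-fold higher in tumors by counts in WT and 5.31-fold in KO hosts. Aldoa, at 98.0 and 98.5%, was almost the sole form in tumor and lung. Pkm made up 99.6% of its step in lungs, and Pklr, the form of liver and red cells, had 0 counts in WT tumors. Eno1 took 78.0% of the sum of Eno1, Eno2 and Eno3 in tumors and 71.2% in lungs as counted, and 87.5 ± 0.837% and 74.7 ± 3.48% with the counts of Eno1b and Gm4735 added to it. At the last step Ldha took 99.1 ± 0.644% in tumors and 60.4 ± 3.19% in lungs, with Ldhb, the heart-type subunit that favors pyruvate, as the partner.

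**Figure D3:**
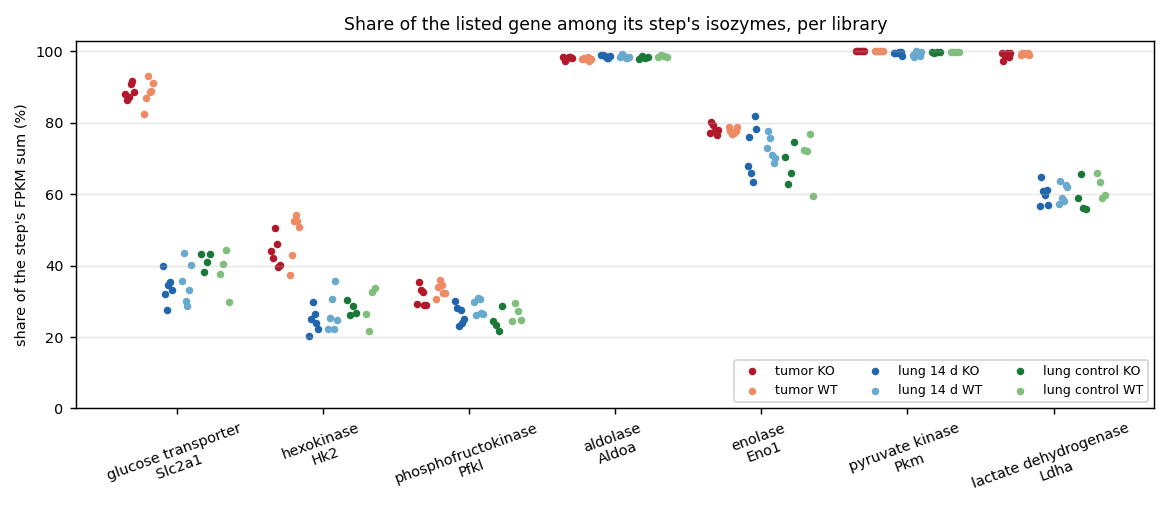
Share of the named gene in the summed FPKM of its enzymatic step, in percent, with 1 point per sample for the 12 tumors and the 20 lungs. The shares of Slc2a1 and Ldha are separated between tissues, 82.4 to 93.0% in tumors and 27.7 to 44.3% in lungs for Slc2a1, while Aldoa stays near 98.0% in tumors and 98.5% in lungs.

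Other enzymes, isozymes and transporters of glycolysis were examined as a list of 21, of which 17 could be tested (37.5% of all genes were called higher and 38.4% lower in tumors of WT hosts, and 37.2% each way in those of KO hosts). Of these, 11 were higher and 5 lower in tumors of WT hosts and 11 were higher and 4 lower in KO hosts, with a median log2 difference of 1.76 and 1.98. Tpi1, the triose phosphate isomerase, was 8.63-fold higher in WT and 8.79-fold in KO tumors, and Pgam1, the phosphoglycerate mutase, 6.88- and 6.48-fold. Ldhb fell by 4.09 on the log2 scale in WT and by 3.69 in KO hosts, from 49.5 to 62.3 CPM in WT 14-day lungs to 1.46 to 5.66 CPM in WT tumors. Hkdc1, a hexokinase-like gene of airway and other epithelia, had 0 counts in all 6 WT tumors and was therefore at least 109-fold lower than in WT 14-day lungs (10.6 ± 2.25 CPM), taking 3 counts over the group as the floor.

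Regulators of flux went in both directions. Of 18 regulators of glycolytic flux and pyruvate use, 5 were higher and 10 lower in tumors of either host, where 37.5 and 37.2% of all genes were called higher and 38.4 and 37.2% lower in WT and KO hosts, and their median log2 difference was -0.38 in WT and -0.30 in KO hosts. Slc16a1, a lactate transporter (MCT1), rose 4.29-fold in WT and 3.17-fold in KO hosts, Pdk1, the kinase that shuts pyruvate dehydrogenase, rose 2.66- and 2.98-fold, and Slc16a3 (MCT4), the lactate exporter, rose 3.62- and 4.86-fold. Pfkfb2, which sets the level of the phosphofructokinase activator fructose 2,6-bisphosphate, fell to 0.248 and 0.257 of the lung level in WT and KO hosts. Slc16a7 (MCT2), a monocarboxylate importer, fell to 0.106 and 0.162 of it.

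Among 20 other genes known to respond to hypoxia, 15 were higher and 2 lower in tumors of WT hosts, and 16 were higher and 2 lower in KO hosts, where 37.5 and 37.2% of all genes were called higher and 38.4 and 37.2% lower in WT and KO hosts. Egln3, an oxygen-sensing hydroxylase, was 40.2- and 61.2-fold higher, and the cytokine Mif 11.6- and 13.02-fold. Vegfa, the angiogenic factor that alveolar epithelium expresses strongly, went the other way, with log2 differences of -2.93 and -2.57. Of 9 transcription factors known to act on glycolysis genes, 4 were higher in both hosts, and 2 were lower in WT and 1 in KO hosts, beside the same shares of all genes. Myc, which the tumor line carries as a transgene, was at 366 to 1160 CPM in tumors and at 1.92 to 7.46 CPM in lungs, and Trp53 was 3.82- and 3.11-fold higher. Epas1 (HIF-2alpha), abundant in lung endothelium and pneumocytes, fell, with log2 differences of -5.18 and -4.81 in WT and KO hosts.

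Since the 9 genes differed between tissues in the same direction, their promoters were searched for the core of the hypoxia response element (ACGTG or GCGTG) and for the E-box CACGTG that Myc and other factors recognize, on both strands, in windows from 250 bases before to 50 bases after each RefSeq start (GRCm38.p6). Each CACGTG holds ACGTG on both strands and so counts there as 2. All 9 genes had a window, 15 windows in all, and 12 of them (80.0%), from 8 genes, held ACGTG or GCGTG, against 43.8% of all 32851 windows. Some windows of Aldoa and of Eno1 overlap, so the 15 are not separate and some sites were counted more than once. The share of all windows was not matched for GC content, which was 52.7 to 69.0% in the 15, so the 2 shares do not test enrichment. CACGTG was found for 1 gene, Ldha, and in 7.15% of all windows. The 3 windows printed are that of Ldha with the most matches, that of Gpi1, the gene with none, and that of Aldoa, the gene with the smallest p between tumors of KO and WT hosts, each on the strand of its gene and with matches, CACGT or ACGTG and GCGTG or CACGC, in capitals.
Ldha, chr7:46845554-46845853, plus strand: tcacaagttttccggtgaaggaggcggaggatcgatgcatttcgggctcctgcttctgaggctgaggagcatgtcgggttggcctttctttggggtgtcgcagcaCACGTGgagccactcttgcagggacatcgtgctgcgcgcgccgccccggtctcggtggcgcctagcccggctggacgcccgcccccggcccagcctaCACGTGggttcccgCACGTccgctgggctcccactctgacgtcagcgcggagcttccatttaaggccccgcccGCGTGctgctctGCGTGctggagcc
Gpi1, chr7:34230287-34230586, minus strand: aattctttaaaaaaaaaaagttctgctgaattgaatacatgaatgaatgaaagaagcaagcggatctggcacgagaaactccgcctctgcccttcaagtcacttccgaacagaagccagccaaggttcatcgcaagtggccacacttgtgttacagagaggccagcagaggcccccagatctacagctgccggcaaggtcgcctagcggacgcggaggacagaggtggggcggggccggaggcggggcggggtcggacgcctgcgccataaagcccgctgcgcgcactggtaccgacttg
Aldoa, chr7:126799129-126799428, minus strand: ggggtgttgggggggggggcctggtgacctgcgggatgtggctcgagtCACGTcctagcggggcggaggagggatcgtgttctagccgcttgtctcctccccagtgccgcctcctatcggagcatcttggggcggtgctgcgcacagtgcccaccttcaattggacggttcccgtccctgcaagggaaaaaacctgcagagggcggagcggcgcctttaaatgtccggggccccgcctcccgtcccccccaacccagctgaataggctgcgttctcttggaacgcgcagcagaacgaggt
The Ldha window held 7 matches, 5 of ACGTG and 2 of GCGTG, including both strands of its 2 E-boxes, and 5 or more matches occurred in 1.66% of all windows. The Gpi1 window held 0 and the Aldoa window 1. A match of letters is a description, and no binding was measured.

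The next question was whether the host's Clic4 genotype was accompanied by a difference in the tumor. None of the 9 genes was called between tumors of KO and WT hosts (0 of 9 at FDR under 0.05 by edgeR, 0 by DESeq2 and 0 by limma on log2 FPKM), where 2.51% of 13830 genes were called. At an unadjusted p under 0.05 there were 2 of 9 in edgeR, Aldoa and Gpi1, where 15.5% of all genes passed that limit, and the ranges of the KO and WT groups overlapped for 9 of 9, whereas 1.82% of genes over 1 CPM did not overlap. The log2 differences lay between -0.03 and 0.21, and the approximate 95% intervals of the fold, each taken for 1 gene, between 0.89 and 1.44. A change beyond 1.44-fold in either direction lay outside each of these intervals, which do not cover the 9 genes jointly.

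Aldoa was at 914, 777, 900.4, 882, 879 and 1006 CPM in the 6 tumors of KO hosts and at 700.0, 699, 867, 848, 712 and 889 CPM in the 6 of WT hosts. Of the KO tumors 5 lay at 879 CPM or above, while the WT tumors split into 3 below every KO tumor and 3 among them. The log2 difference was 0.19 ± 0.08 SE (FDR = 0.27). Gpi1 was at 527, 472, 527, 501, 481 and 579.6 CPM in KO and at 400.3, 428, 529, 501, 445 and 479 CPM in WT hosts, with 1 WT tumor above 5 of the KO tumors. Its log2 difference was 0.16 ± 0.07 SE (FDR = 0.32).

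Slc2a1 and Hk2 had the largest differences and the widest spread. Slc2a1 was at 196, 145, 154, 126, 163 and 157 CPM in KO hosts and at 93.8, 105, 175, 167, 107 and 172 CPM in WT hosts, with a log2 difference of 0.21 ± 0.16 SE (FDR = 0.58). Hk2 was at 286, 211, 264, 242, 289.6 and 268 CPM in KO and at 147, 160, 279.6, 303, 224 and 244 CPM in WT hosts, with 0.21 ± 0.15 SE (FDR = 0.56). For both genes the lowest 2 tumors and, for Hk2, also the highest came from WT hosts. The same WT tumors were low or high for several of the 9 genes. WT tumor 1 was among the 3 lowest of the 12 tumors for 8 of 9, WT tumor 2 for 6 and WT tumor 5 for 5, while WT tumor 3 was among the 3 highest for 7 and KO tumor 6 for 6. The remaining genes differed by 0.10 (Pfkl), 0.03 (Pgk1), -0.03 (Eno1), 0.02 (Pkm) and -0.00098 (Ldha) on the log2 scale.

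Another enzyme of the first step did differ. Hk3, a hexokinase expressed mainly in myeloid cells, was called among the 15 other glycolysis genes tested (1 higher and 0 lower by edgeR, 5 with an unadjusted p under 0.05, 2 called by DESeq2 and 1 by limma). Over all genes edgeR called 2.51% (347 genes) and gave 15.5% an unadjusted p under 0.05, while DESeq2 called 549 genes and limma 182. Hk3 was at 55.9, 49.1, 35.3, 57.7, 113 and 85.3 CPM in tumors of KO hosts and at 32.5, 11.5, 13.2, 13.9, 12.8 and 21.1 CPM in tumors of WT hosts, and the groups did not overlap. The difference was 3.8-fold (log2 1.92 ± 0.30 SE, FDR = 0.0017), and it was called in all 12 fits that left out 1 tumor (log2 1.70 to 2.21). Hk2 took 43.8 ± 4.08% of the FPKM of the hexokinase step in KO and 48.5 ± 6.7% in WT hosts. The second gene called by DESeq2 was Eno3, the muscle enolase (log2 -0.30, FDR = 0.048).

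Markers of leukocytes stood beside Hk3 in these tumors, where edgeR called 2.51% of all genes and 15.5% had an unadjusted p under 0.05. Of 6 macrophage markers 1 was called (C1qb, a complement component, log2 0.73, FDR = 0.037) and 5 of 6 were higher in sign, with a summed level of 839 to 1173 CPM in KO and 605 to 1132 CPM in WT hosts. Of 5 leukocyte and T cell markers tested 1 was called (Cd3d, log2 1.46, FDR = 0.039), while 5 of 5 were higher in sign and had an unadjusted p under 0.05 in edgeR, with a median log2 difference of 1.13, and the summed level of the 6 listed was 209 to 310.5 CPM against 84.2 to 272 CPM. Leaving out 1 tumor ended the call in 9 of 12 fits for C1qb and in 10 of 12 for Cd3d. Neutrophil markers (0 of 4 called) summed to 17.97 to 46.5 CPM and 17.8 to 26.6 CPM, and no defining marker of these lists was at 0 in either group. Of 6 adipocyte markers edgeR called 0 and DESeq2 2, and 6 of 6 were higher in sign and 5 of 6 had an unadjusted p under 0.05, with sums of 182 to 659.7 CPM in KO and 171 to 294.9 CPM in WT hosts. The part of these cell types in the Hk3 difference was not tested. Of the other lists, edgeR called 0 of 18 regulators, 0 of 20 hypoxia genes and 0 of 9 transcription factors between these tumors, with 4, 2 and 3 at an unadjusted p under 0.05 (15.5% of all genes). DESeq2 called 1, 0 and 0 of them, and limma called 0 of each. Of 12 proliferation genes 0 were called by any of these tools, and 0 had an unadjusted p under 0.05, while 12 of 12 were lower in sign, with a median log2 difference of -0.12. Of 5 epithelial markers tested 0 were called by any of them, 2 had an unadjusted p under 0.05, and 3 were higher in sign.

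In the lungs the question was whether a distant tumor, or the loss of Clic4, was accompanied by a difference in the pathway. None of the 9 genes was called at the limit used for lungs, an FDR under 0.25, by edgeR, DESeq2 or limma, and none had an unadjusted p under 0.05 in edgeR, in any of 5 comparisons. These were 14 days against control in KO mice (1.05% of 16029 genes called) and in WT mice (2.33%), KO against WT at 14 days (0.861%) and without tumor (0.973%), and the interaction of genotype and tumor (0.0499%). In each of the 4 pairs of groups the ranges overlapped for 9 of 9 genes, while the share of genes over 1 CPM without overlap was 2.13, 2.86, 0.537 and 7.45% in the same order. The log2 differences of the 9 ran from -0.24 to 0.16 in KO mice with a tumor, from -0.08 to 0.13 in WT mice, from -0.22 to 0.18 for genotype at 14 days and from -0.32 to 0.16 for genotype without tumor. The widest 95% interval of the fold over these 4 comparisons reached down to 0.587 (Eno1, control lungs) and up to 1.49 (Eno1, KO lungs).

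The difference furthest from 0 in tumor-bearing KO mice was that of Hk2. It was at 20.1, 20.4, 28.9, 25.4, 28.9 and 26.8 CPM in KO lungs at 14 days and at 29.0, 25.9, 32.4 and 31.8 CPM in KO control lungs, with a log2 difference of -0.24 ± 0.15 SE (FDR = 0.69). Of the control lungs 3 lay above every 14-day lung, and 1 lay among them. In WT mice the spans of Hk2 were 19.3 to 35.1 CPM at 14 days and 21.5 to 31.1 CPM without tumor, and the difference between the genotypes in this contrast was -0.16 ± 0.21 SE (FDR = 0.87). In WT lungs Slc2a1 had the largest difference of the 9, 0.13 ± 0.14 SE (FDR = 0.75). Over the 4 comparisons the log2 differences ran from -0.13 to 0.04 for Pfkl, from -0.07 to 0.02 for Aldoa, from 0.03 to 0.06 for Pgk1, from -0.11 to 0.01 for Pkm and from -0.04 to 0.05 for Ldha.

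The wider pathway gave few calls in the lungs. Among the 17 other glycolysis genes tested, 0 were called in the 5 comparisons by edgeR, DESeq2 or limma. An unadjusted p under 0.05 in edgeR occurred for 2 of them, in KO mice with a tumor, where 8.64% of all genes passed that limit. Among the 18 regulators edgeR called 1, in WT mice, DESeq2 called the same gene and 1 more in KO mice, and limma called 0. The gene in WT mice was Bsg, the chaperone of the lactate transporters Slc16a1 and Slc16a3, which was lower in WT lungs with a tumor (log2 -0.15 ± 0.05 SE, FDR = 0.245), a call that was lost in 8 of 10 fits that left out 1 lung. The gene in KO mice was Pdk2, a kinase that inhibits pyruvate dehydrogenase, with a log2 difference of 0.37 (FDR = 0.22 by DESeq2 and 0.28 by edgeR). Of 6 neutrophil markers edgeR called 4 higher in WT and 2 in KO mice with a tumor, DESeq2 called 4 in each and limma 1 and 0. Over all genes edgeR called 2.33% in WT and 1.05% in KO mice (373 and 169 genes), and DESeq2 called 520 and 321 genes. All 6 were higher in sign in both, with median log2 differences of 1.59 and 1.41, and 0 of 6 were called in the interaction by any of these tools, with 0 at an unadjusted p under 0.05 in edgeR. Their summed level was 87.1 to 322 CPM in WT lungs with a tumor against 43.5 to 82.6 CPM without, and the KO groups overlapped, at 35.9 to 357 CPM against 52.9 to 93.7 CPM. In the same WT lungs edgeR called 2 of 11 proliferation genes tested lower, Mcm2 and Mcm5, by 0.57 and 0.63 on the log2 scale. It also called 1 of 6 fibroblast markers lower, the collagen Col1a1 (by 0.73), and 1 of 6 alveolar markers, the surfactant protein Sftpb (by 0.26). DESeq2 called 1, 1 and 2 genes of these 3 lists, without Mcm5, and limma 0 of each. At an FDR of 0.05 edgeR called 0 genes in WT lungs.

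Eno1 had the widest lung intervals of the 9 together with Gpi1, and its counts depended on near-identical copies. Eno1b, a single-exon copy, matched the Eno1 transcript at 99.5% identity over 1736 bases, and Gm4735 at 99.6% over 1302 bases. In 12 lungs Eno1 was at 83.0 to 101 CPM and Eno1b at no more than 1.46 CPM. In the other 8 lungs, those with over 10 CPM on Eno1b, Eno1 was at 36.2 to 71.3 CPM, Eno1b at 10.4 to 23.3 CPM and Gm4735 at 10.1 to 20.2 CPM. These 8 were 3 of 6 KO lungs at 14 days, 3 of 4 KO control lungs, 1 of 6 WT lungs at 14 days and 1 of 4 WT control lungs. The sum of all 3 genes was 78.7 to 98.0 CPM in the 8 lungs and 83.6 to 101 CPM in the 12, and its coefficient of variation over the 20 lungs was 7.55%, against 23.6% for Eno1 alone.

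**Figure D4:**
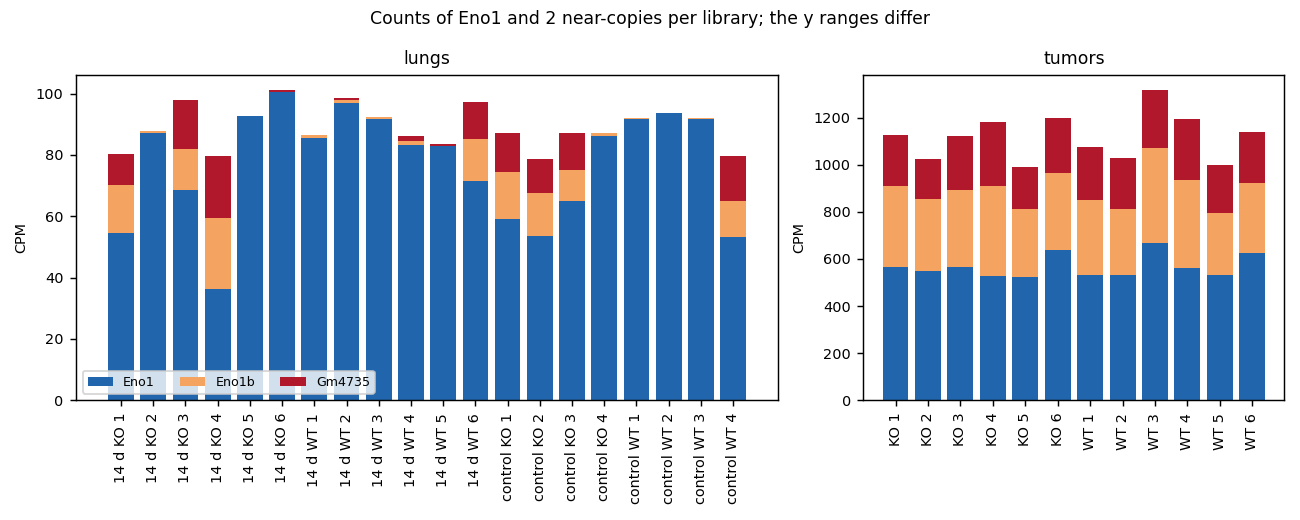
CPM assigned to Eno1, Eno1b and Gm4735 in each of the 20 lungs (left) and 12 tumors (right, on a larger y range), as stacked bars from 0. In 8 lungs part of the total lies on the copies, while the full height of the lung bars stays between 78.7 and 101 CPM, and in tumors the copies take 45.2 to 55.4% of the height.

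The difference between genotypes was smaller in the sum. Eno1 alone differed by -0.22 ± 0.18 SE (FDR = 0.81) in 14-day lungs of KO and WT mice, and the sum by -0.02 ± 0.06 SE (FDR = 0.98), where the sum fitted also held another copy, RP23-349J3.8, with at most 1 count in a library. Without tumor the values were -0.32 ± 0.23 SE (FDR = 0.60) for Eno1 alone and -0.07 ± 0.08 SE (FDR = 0.76) for the sum. Eno1 lies on chromosome 4, as do Slc2a1 and Clic4, at 15.0 and 16.1 Mb from Clic4 for Eno1 and Slc2a1, and the KO line had been crossed back from a mixed background. Whether the sequence of the Eno1 alleles differs between these mice was not tested. In tumors, in both hosts, the copies took 45.2 to 55.4% of the summed counts, and the sum was 991 to 1318 CPM. Pgk1 also has copies in the table, which took 0 to 22.8% of its summed counts in lungs and 3.39 to 16.7% in tumors.

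Gpi1 varied for a different set of lungs. It was at 116, 55.8, 124, 114, 112 and 125 CPM in the 6 WT lungs at 14 days and at 130.4, 57.2, 126 and 125 CPM in the 4 WT control lungs, while KO lungs were at 112, 113, 136, 120.3, 129 and 127 CPM at 14 days and at 117, 102.9, 126 and 121 CPM without tumor. The WT lungs numbered 2 at 14 days and without tumor thus stood apart, at 0.456 and 0.467 of the median of the other 18 lungs (122 CPM, mean 121 ± 8.22 SD). The coefficient of variation over the 20 lungs was 18.6% with both and 6.8% over the other 18.

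The neighbors of Gpi1 were low in the same lungs. Within 1.5 Mb of Gpi1, 20 genes had a median of at least 5 CPM, and 7 of them were below all 18 other lungs in both of these samples. The 7 include Gpi1 itself, whose low values prompted the search, and Gm26762, which lies within Gpi1. They stood next to each other, with Pdcd2l among them, from Wtip to Lsm14a (chr7:34109543-34393315, GRCm38), bounds that were read from these same values, and the 8 genes of this stretch were at 0.204 to 0.651 of the median of the 18. Uba2, a subunit of the SUMO-activating enzyme, was at 33.8 and 32.2 CPM against 57.4 to 73.9 CPM in the other 18, and Lsm14a, an RNA-binding protein of processing bodies, at 38.9 and 32.2 CPM against 60.7 to 82.1 CPM. The 12 genes outside these bounds all lie after Lsm14a and had ratios of 0.635 to 1.65. No gene of the window before Wtip had a median of at least 5 CPM, so the left end of the stretch was not seen. Over all 12275 genes with that level, 146 (1.19%) were below all other lungs in both. The cause of the low block was not tested. Since Gm26762 overlaps Gpi1, the reads of this pair may be divided differently by another counting rule.

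**Figure D5:**
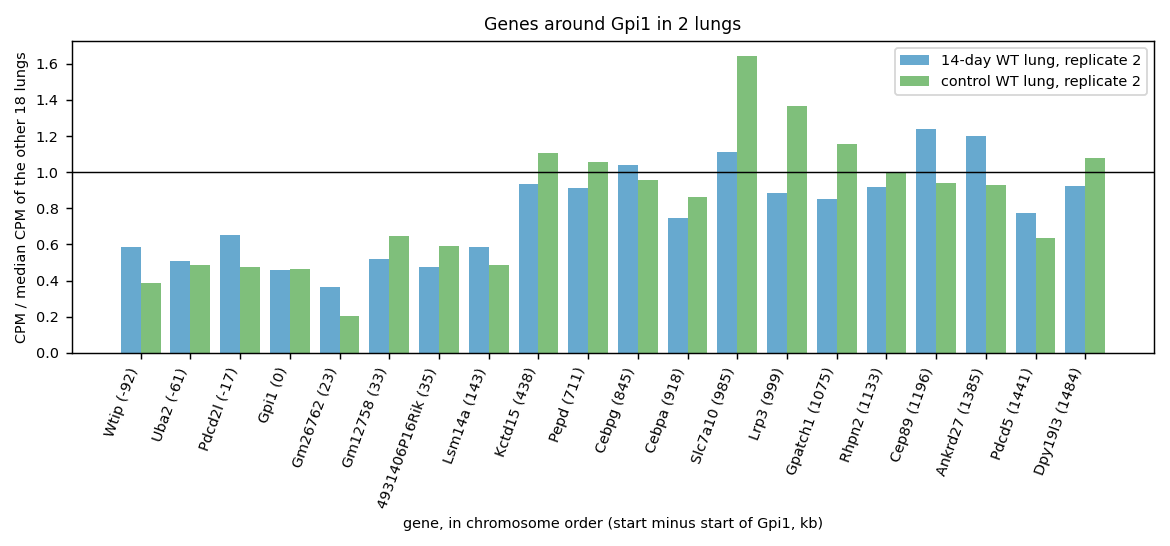
Ratio of the CPM of each gene within 1.5 Mb of Gpi1 to its median in the other 18 lungs, as bars from 0, for the WT lungs numbered 2 at 14 days and without tumor. Genes stand in chromosome order with their distance from Gpi1 in kb. The 8 genes from Wtip to Lsm14a lie between 0.204 and 0.651, and the 12 genes after Lsm14a lie between 0.635 and 1.65.

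Without these 2 lungs Gpi1 differed between KO and WT control lungs by -0.12 on the log2 scale, against 0.09 ± 0.20 SE with them (FDR = 0.90), and neither was called. At 14 days its difference between genotypes was 0.05 ± 0.06 SE (FDR = 0.89) without them and 0.18 ± 0.17 SE (FDR = 0.84) with them. In the tumor against lung contrast Gpi1 was called in both hosts with and without these lungs.

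The last comparison asked whether the tumor against lung difference itself was unequal between hosts. None of the 9 genes was called (0 of 9 at FDR under 0.05 by edgeR, 0 by DESeq2 and 0 by limma), where 1.06% of 16825 genes were called. The log2 differences of the contrast, KO minus WT, ran from -0.06 to 0.24, and 1 of 9 had an unadjusted p under 0.05 in edgeR, as did 12% of all genes. This was Aldoa, with 0.22 ± 0.09 SE (FDR = 0.30), and Hk2 had the largest value, 0.24 ± 0.22 SE (FDR = 0.71). The others were at 0.22 (Pfkl), 0.18 (Eno1), 0.17 (Slc2a1), 0.06 (Pkm), -0.03 (Pgk1), -0.04 (Gpi1) and -0.06 (Ldha). Among the 17 other glycolysis genes Hk3 was called, with 2.08 ± 0.42 SE (FDR = 0.0082).

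Genes whose level followed the 9 most closely were found by the root mean square difference of centred log2(CPM + 1) over the 32 samples among 16816 genes. To the mean of the 9 genes, Gapdh was nearest (0.105), followed by Pgam1 (0.114), Tes (0.145), Npm1 (0.172) and Twist1 (0.184). Gapdh and Pgam1 are the glycolytic enzymes that act just before and just after Pgk1. Ldha was followed most closely by Pgam1 (0.0687), Pgk1 by Tpi1 (0.113) and Slc2a1 by Mif (0.228). The nearest genes of Hk2 (Slc39a14, 0.256), Pfkl (Lama5, 0.151) and Eno1 (Tubb6, 0.283) are not glycolytic enzymes. For Gpi1, Aldoa and Pkm the nearest were Rpl3-ps1, Rps12-ps3 and Gm13394, at 0.249, 0.103 and 0.0968. These distances include the tumor against lung difference over the 32 samples, which was not separated from the spread within a tissue, and carry no test. Gapdh itself was at 643 to 930.3 CPM in tumors and at 95.9 to 125 CPM in lungs.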

How the data were processed

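Total RNA of 32 frozen tissues was made into stranded mRNA libraries and sequenced paired-end. Per the labels, the authors aligned reads to mm10 (GRCm38) with STAR and estimated gene levels with RSEM; the gene annotation is not given in the sources used here. The deposited tables held expected counts, all whole numbers, for 29511 genes and FPKM as normalized by the authors. The counts were fitted with edgeR 4.0.16 (R 4.3.3; TMM scaling, filterByExpr, quasi-likelihood test, Benjamini-Hochberg adjustment over all genes tested), in 1 fit each for the 12 tumors, the 20 lungs and all 32 samples. Calls were made at an FDR of 0.05 for tumors and tissues and 0.25 for lungs. DESeq2 1.42.0 and limma 3.58.1 on log2(FPKM + 1) were alternatives, with others listed in the closing part, and the fit was tested on simulated data. Groups and replicate numbers came from the sample labels. The sources do not tie each sample to a mouse, and a tumor and a lung may come from the same mouse, so p-values measure the spread between samples, and those of tumor against lung treat the samples as independent.

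The 9 genes and the other lists were chosen with earlier results of these data known. All 9 are given in every comparison, by value or by range; from each other list, up to 2 called genes per direction were eligible, ranked by p, and some of these are left out here. Isozymes were named as partners of the 9. The genes around Gpi1, Eno1b, Gm4735, Pdk2 and Eno3 and the samples that stood apart were named after their values were seen. Gene positions were read from GENCODE M21, promoter windows from RefSeq (GRCm38.p6). Copies were matched by blastn at 90% identity or more over at least 300 bases. In 72 pairs of samples within a group none differed by as little as sampling noise (chi-square per degree of freedom 2.55 to 16.5).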

Additional observations from a re-analysis of the deposited data

Results flagged for a closer look

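Within groups of 4 to 6 samples, 4 of 54 sets of values held a sample whose gap to the nearest other exceeded Dixon's limit, where chance gives about 2.7. Gpi1 was at 55.8 CPM in WT lung 2 at 14 days (others 112 to 125 CPM) and at 57.2 CPM in WT control lung 2 (others 125 to 130.4 CPM). Pfkl was at 31.0 CPM in WT lung 5 at 14 days (others 41.7 to 45.4 CPM). Eno1 was at 53.3 CPM in WT control lung 4 (others 91.6 to 93.5 CPM), which is 1 of the 8 lungs with counts on Eno1b.

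The tumor against lung contrast differed between KO and WT hosts in edgeR's test of that difference for 1 glycolysis gene and 1 marker gene. For Hk3 the difference was 2.08 ± 0.42 SE on the log2 scale (FDR = 0.0082). For Tnni3, a troponin of heart muscle, it was 2.85 ± 0.56 SE (FDR = 0.0072). In the fit of tumors alone 1 of 6 cardiac markers, Tnnt2, passed the count filter, and Tnni3 did not. The tumor counts behind the Tnni3 value were therefore low, at 0.00668 of the lung level in WT hosts. Between KO and WT lungs at 14 days Tnni3 differed by -0.55 on the log2 scale by limma (FDR = 0.13). The sum of 6 cardiac markers was 438 to 545 CPM in KO and 563 to 880.0 CPM in WT lungs at 14 days and 14.1 to 32.2 CPM in tumors. The part of heart tissue in any lung value was not tested.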

How the results depend on the processing

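The count of the 9 genes called stayed at 0 for tumors, for the lung comparisons and for the difference between hosts, and at 9 for tumor against lung, in all alternatives but 1 and in all fits that left out 1 sample. The exception was the replicate number as a block in KO lungs, which called 1 gene, Hk2 (log2 -0.33, FDR = 0.239). The numbers were not taken to pair the samples, since in no pair of groups did every same-numbered pair correlate above 0.1 (-0.35 to 0.244 over all). KO tumors and 14-day KO lungs came nearest, with 3 of 6 pairs above it (0.0496 to 0.178), and whether same-numbered samples share a mouse is not given. The block moved the count of all genes called from 169 to 513 in KO lungs, and changed no other call among the 9. The count of all genes called moved more: from 169 to 6 (FDR 0.05) in KO lungs, from 347 to 549 (DESeq2) and 146 (2-fold limit) between tumors, from 373 to 0 (FDR 0.05) and 582 (block) in WT lungs, from 138 to 15 (FDR 0.05) and 262 (DESeq2) for genotype at 14 days, from 156 to 3 (FDR 0.05) and 1189 (only the compared groups) without tumor, from 8 to 0 (limma) and 195 (DESeq2) for the interaction, and from 179 to 83 (limma) and 303 (DESeq2) for the difference between hosts. The median ratio of FPKM in tumors to lungs over the 9 was 6.98, and 6.11 after rescaling without the 3 small RNAs.

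Over the 9 genes and 9 comparisons, the sign changed under at least 1 alternative or left-out sample for 33 of 81 differences, and for 0 of the 18 between tumor and lung. The values with the changed sign lay within 0.157 of 0, and 0 of them were called. Of the differences given singly above, those that changed sign include the following. Between tumors, Ldha was at 0.0019 with DESeq2, 0.0017 with RLE size factors, 0.0052 with no filter and 0.0081 with at least 10 counts in every sample. Pgk1 was at -0.0097 and -0.0098 by limma with 1 and 0.1 added and at -0.0032 with GC offsets. Pkm was at -0.018 and -0.018 in the same limma fits, -0.0075 after rescaling, -0.030 with GC offsets and -0.037 with GC offsets and replicate block. In lungs Slc2a1 was at -0.0037 by limma with 0.1 added in WT mice, and Gpi1 at -0.12 in control lungs without both WT lungs numbered 2. The difference of the tumor against lung contrast was 0.093 for Gpi1 without these lungs and -0.013 for Eno1 with its near-copies summed, alternatives chosen after seeing the data. With its copies summed, Pgk1 averaged 640 CPM in KO and 610 CPM in WT tumors, and 66.1 and 67.7 CPM in 14-day lungs. By these means its difference of contrasts was above 0, against -0.03 as counted. Leaving out 1 sample gave -0.12 to 0.17 for Gpi1 in control lungs and -0.084 to 0.093 in the difference of contrasts, and between tumors -0.063 to 0.019 for Eno1, -0.031 to 0.040 for Ldha, -0.0070 to 0.076 for Pgk1 and -0.012 to 0.074 for Pkm. Apart from construction, the causes were not tested. The call of Hk3 in the difference of contrasts was lost by limma with 0.1 added (FDR = 0.052), as was that of Tnni3 (FDR = 0.083). The lowest counts behind a value were those of Slc2a1 in lungs, 45 to 91.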

Other observations

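Branches off glycolysis also differed between tumor and lung. Of 11 genes of the pentose phosphate and serine branches, 10 were higher and 1 lower in tumors of WT hosts, and 9 were higher and 1 lower in KO hosts, where 37.5 and 37.2% of all genes tested were called higher and 38.4 and 37.2% lower in WT and KO hosts. Psat1 and Phgdh, which draw 3-phosphoglycerate into serine synthesis, were 21.4- and 15.2-fold higher in WT and 18.2- and 14.0-fold higher in KO hosts. Taldo1, the transaldolase of the pentose phosphate pathway, was lower, by 0.43 in WT and 0.28 in KO hosts on the log2 scale, and this call was lost with GC offsets (FDR = 0.11 and 0.69).

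Of 5 genes of gluconeogenesis tested, 4 were higher and 1 lower in tumors of WT hosts, and 3 were higher and 0 lower in KO hosts, beside the same shares of all genes. Pck2, the mitochondrial PEP carboxykinase, was 2.21- and 1.99-fold higher in WT and KO hosts. The cytosolic Pck1, abundant in fat, was 2.02-fold higher in WT and 6.06-fold in KO hosts. The sum of 6 adipocyte markers was 171 to 294.9 CPM in tumors and 60.03 to 132.7 CPM in 14-day lungs of WT hosts, and 182 to 659.7 CPM and 51.8 to 93.3 CPM in KO hosts. The part of fat tissue was not tested.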
